A study of Mus musculus with 2 samples.

Results

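Krt6a, Krt6b, Krt16, Krt17 and Krt75 are the keratins that mark wounded, stressed and hyperproliferative epidermis. They were found by gene symbol among the 32285 genes of the count matrices, and all 5 had a row and passed the filter on low counts in epithelial-like cells. The data are droplet single-cell RNA sequencing of tumours of the dorsal skin, raised by weekly application of the carcinogen DMBA for up to 20 weeks and collected from mice aged 5 months. Eed iKO-D is the library of mice with loxP-flanked Eed alleles and a Cre recombinase driven by the keratin 14 promoter (K14CrERT2;Eed flox/flox), to which hydroxytamoxifen at 20 mg/ml was applied to the skin from postnatal day 50 on 4 days. Ctrl-D is the library of mice that carried the same Eed flox/flox alleles without a Cre in their labelled genotype and were given ethanol, the solvent. All mice of both groups were given DMBA. Genotype and hydroxytamoxifen therefore differed together, and the keratin 14 promoter limits recombination to keratinocytes and their descendants. Eed belongs to the core of PRC2, the Polycomb complex that deposits the repressive histone mark H3K27me3. The comparison asks how keratinocytes differ between tumours with and without Eed.

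Keratins build the intermediate filaments of epithelial cells as obligate pairs of a type II and a type I chain. In resting epidermis, basal cells use Krt5 with Krt14 and suprabasal cells use Krt1 with Krt10. After wounding and in squamous tumours, interfollicular keratinocytes switch on the type II keratins Krt6a and Krt6b and the type I keratins Krt16 and Krt17. In the hair follicle some of them are made without injury: Krt17 and Krt6a in the outer root sheath and companion layer, and Krt75, a type II keratin, in the companion layer.

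There was 1 library per group. Differences therefore have no check against replicates, and p-values are not given. Intervals are exact, at 95%, and cover counting error only. Eed iKO-D held 289511009 UMIs (unique transcript molecules counted) in 22259 barcodes, and Ctrl-D 120500892 UMIs in 8039 barcodes, with 49 barcode sequences in both. After filtering, 58.98% of Eed iKO-D cells and 2.22% of Ctrl-D cells lay in unnamed clusters, most of them in Eed iKO-D clusters with up to 40.9% of UMIs from Gm42418, an annotated RNA that overlaps ribosomal RNA. Although both samples are labelled as epidermal cancer cells, epithelial-like cells made up 35.9% of the named cells of Eed iKO-D and 74.3% of those of Ctrl-D. There were 3161 such cells in Eed iKO-D, with a median of 36867 UMIs, and 5462 in Ctrl-D, with a median of 15720. The targeted gene Eed had 47.4 CPM (UMIs of the class scaled to the same total in each library) in Eed iKO-D epithelial-like cells and 52.9 CPM in Ctrl-D ones. The reads are from transcript 3′ ends and the deleted exons are not given, so this level does not check recombination.

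The keratin genes lie in 2 clusters, type II on chromosome 15 and type I on chromosome 11. The neighbours Krt6a and Krt6b are near copies of each other, and the neighbours Krt16 and Krt17 are less alike. In mm10 (GENCODE M21), Krt6a is at chr15:101689910-101694307 and Krt6b at chr15:101676023-101680287, with 9622 bases between them, and Krt75 is at chr15:101563345-101573904. Krt16 is at chr11:100246091-100248902 and Krt17 at chr11:100256217-100261029, with 7314 bases between them, and all 5 are on the minus strand. Krt6a is overlapped by the antisense gene Gm49428. The coding sequences of Krt6a and Krt6b are 97.8% identical over 1662 aligned bases, against 75.3% over 1296 for Krt16 and Krt17. The last 36 coding bases of the Krt6 pair, taken from GENCODE M21 transcripts, are printed to show how alike they are, with the bases that differ in capitals (chr15:101690467-101690502 and chr15:101676529-101676564).
Krt6a: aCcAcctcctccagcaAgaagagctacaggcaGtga
Krt6b: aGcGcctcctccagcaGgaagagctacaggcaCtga
Beyond the stop codon the pair diverges. Among 90-base windows of the last 500 transcript bases, where 3′ reads fall, the window closest to any other gene had 15 mismatches for Krt6a and 5 for Krt6b, in both cases to the neighbouring gene Gm5478. That gene was at 0.195 CPM in Eed iKO-D and 0.0297 CPM in Ctrl-D epithelial-like cells. Krt75 came within 44 mismatches of Krt25. Of 411 windows of Krt16, 18 were identical to the annotated pseudogene Gm11597 and 128 were within 3 mismatches of another gene. Gm11597 is not among the 32285 genes counted. Of 411 windows of Krt17, 76 were within 3 mismatches of another gene. In the last 300 bases, 0 of 211 windows were that close for either gene. The closest window, from the coding part of Krt17, differs from Krt14, the most abundant keratin here, at the 1 base in capitals.
Krt17: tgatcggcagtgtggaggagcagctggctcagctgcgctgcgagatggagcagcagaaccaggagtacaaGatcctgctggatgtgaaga
Krt14: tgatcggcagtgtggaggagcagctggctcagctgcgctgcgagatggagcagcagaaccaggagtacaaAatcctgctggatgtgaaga
A read from that stretch could be assigned to either gene, and likewise for the shared stretch of Krt16, while reads nearer the transcript end can be told apart. How the counting treated such reads was not tested.

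Over all epithelial-like cells the 5 keratins moved in opposite directions. Krt6a was at 4608 CPM in Eed iKO-D and 1971 CPM in Ctrl-D, a ratio of 2.34 (2.33 to 2.35). Its neighbour Krt6b was at 1372 CPM in Eed iKO-D and 605 CPM in Ctrl-D, a ratio of 2.27 (2.25 to 2.29). Krt16, the usual type I partner of the Krt6 proteins, was at 3315 CPM in Eed iKO-D and 2106 CPM in Ctrl-D, a ratio of 1.57 (1.566 to 1.58). Krt17, which also pairs with Krt6 proteins, went the other way. It was at 914 CPM in Eed iKO-D and 2193 CPM in Ctrl-D, a ratio of 0.417 (0.414 to 0.420). Krt75 was almost absent from epithelial-like cells, with 13 UMIs (0.0940 CPM) in Eed iKO-D and 333 UMIs (3.30 CPM) in Ctrl-D, a ratio of 0.0285 (0.0150 to 0.0494). Thus 3 of 5 members were at least 1.5-fold higher in Eed iKO-D, where 38.7% of 19589 measured genes were, and 2 of 5 were at least 1.5-fold lower, where 16.9% were. The median gene was itself higher in Eed iKO-D, by 0.34 on the log2 scale. Relative to it the ratios were 1.85 for Krt6a, 1.79 for Krt6b, 1.25 for Krt16 and 0.330 for Krt17, so Krt16 did not reach 1.5-fold on that scale. The class also depends on which clusters can be named: at a finer clustering (resolution 2.0), which left 3061 epithelial-like cells in Eed iKO-D and 1597 in Ctrl-D, the ratios were 1.21 for Krt6a, 0.834 for Krt6b, 0.684 for Krt16 and 0.280 for Krt17, so those of Krt6b and Krt16 turned round.

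The basal keratins showed smaller ratios. Krt5 was at 5732 CPM in Eed iKO-D and 5168 CPM in Ctrl-D, and Krt14 at 15891 CPM in Eed iKO-D and 13608 CPM in Ctrl-D. The suprabasal keratins were lower in Eed iKO-D, Krt1 at 224 CPM against 707 CPM in Ctrl-D and Krt10 at 173 CPM against 811 CPM in Ctrl-D. Krt13, a keratin of mucosal epithelia, was at 35.5 CPM in Eed iKO-D and 0.773 CPM in Ctrl-D, so even at its higher level it was far scarcer than the 4 abundant wound keratins.

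The 2 libraries filled different keratinocyte clusters, and Krt6a, Krt6b and Krt16 differed more between clusters than between libraries. Clusters were built without the 5 keratins. Of 8 epithelial-like clusters, 5 had at least 50 cells in each library, and their leading genes and sizes show the shift. Cluster 13, a basal-like cluster led by Prl8a9, Lama3 and Il24, held 1572 cells in Eed iKO-D and 129 in Ctrl-D. Cluster 7, led by Sprr2d, Crct1 and Cnfn, held 486 cells in Eed iKO-D and 145 in Ctrl-D. It is given no layer name: its score was highest for spinous markers, but its leading genes hold more cornifying markers (Crct1 and Cnfn) than spinous ones (Krt1). Cluster 9, basal-like and led by Tslp, Sostdc1 and Krt15, held 420 cells in Eed iKO-D and 169 in Ctrl-D. In the other direction, cluster 3, spinous-like and led by Chil4, Sprr2a3 and Krt1, held 144 cells in Eed iKO-D and 2664 in Ctrl-D. Cluster 11, follicle-like and led by Defb6, Krt79, Krt15 and Lgr5, held 110 cells in Eed iKO-D and 1455 in Ctrl-D. Cluster 17, basal-like with Ltf and Arg1, had 415 cells in Eed iKO-D and 4 in Ctrl-D. Cluster 5, led by Cck and Ppp1r14a, had 0 cells in Eed iKO-D and 650 in Ctrl-D. The cornifying-like cluster 8, led by Lor, had 14 cells in Eed iKO-D and 246 in Ctrl-D.

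**Figure D1:**
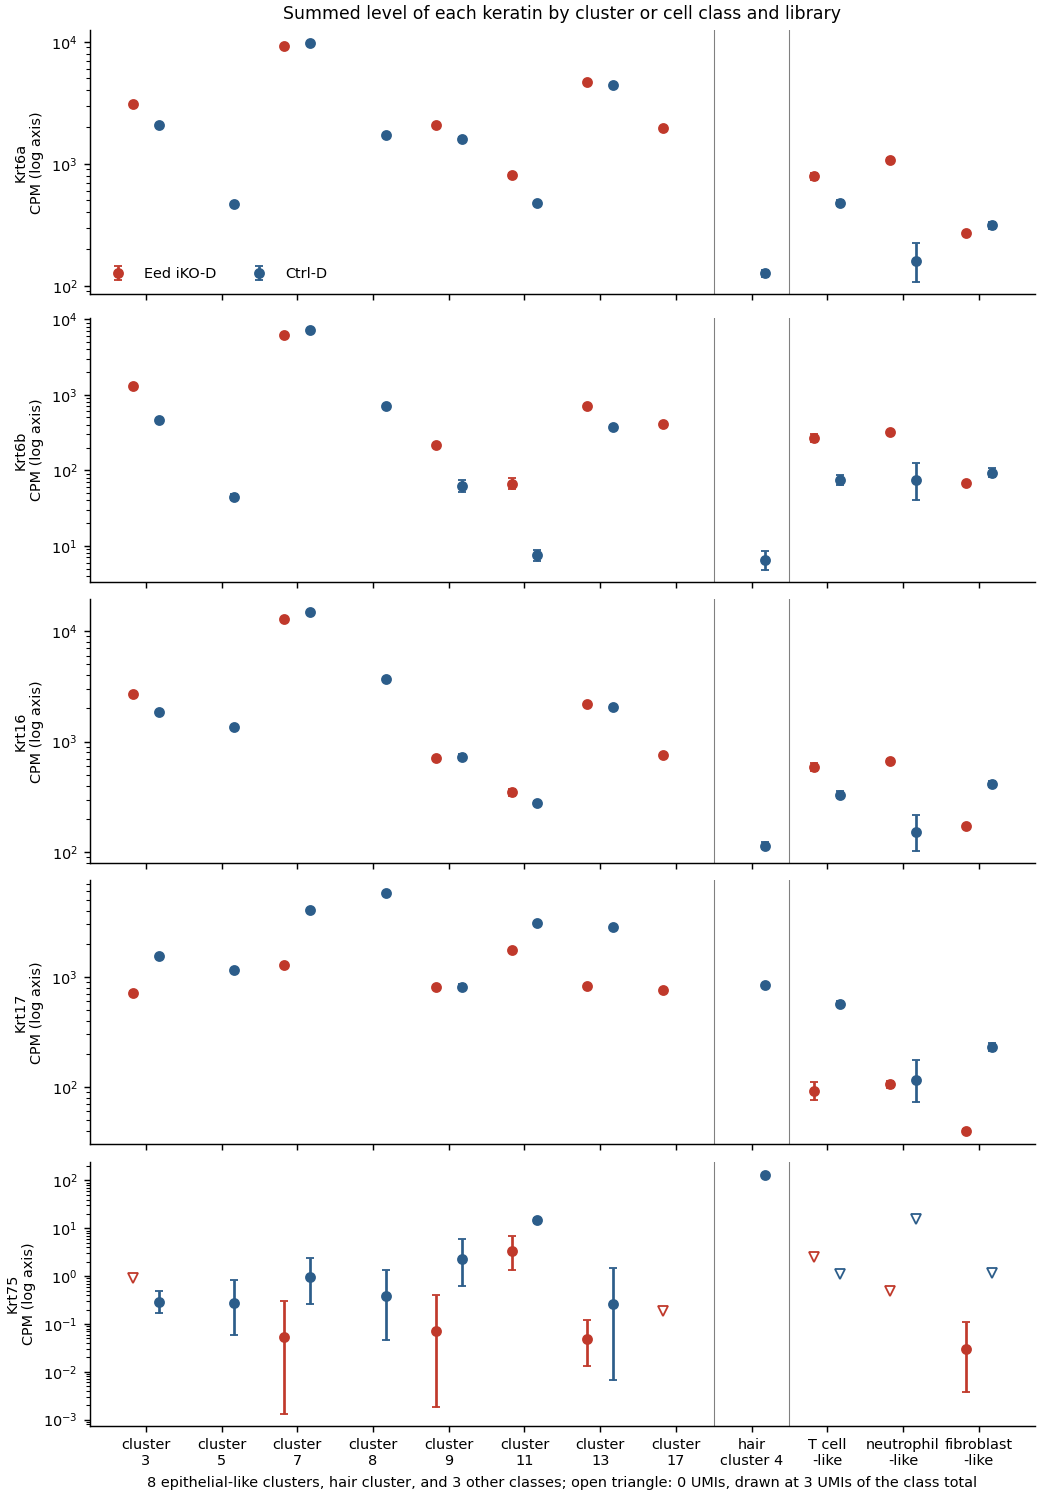
Level of each keratin (CPM, log axis) from UMIs summed per cluster or cell class, for units with at least 50 cells, with Eed iKO-D in red at the left and Ctrl-D in blue at the right of each position. Bars are exact 95% Poisson intervals, and open triangles mark 0 UMIs, drawn at the level of 3 UMIs. Krt6a, Krt6b and Krt16 peak in cluster 7 in both libraries, Krt17 peaks in Ctrl-D clusters 8, 7 and 11, and Krt75 stands out in the hair cluster.

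Cluster 7 was the peak of Krt6a, Krt6b and Krt16 in both libraries. There Krt6a was at 9156 CPM in Eed iKO-D and 9811 CPM in Ctrl-D, Krt6b at 6141 CPM in Eed iKO-D and 7096 CPM in Ctrl-D, and Krt16 at 12870 CPM in Eed iKO-D and 14958 CPM in Ctrl-D. The ratios were 0.933 for Krt6a, 0.866 for Krt6b and 0.860 for Krt16. In the cells where these 3 keratins were highest their summed levels were thus slightly lower in Eed iKO-D, and further below the median gene, which was higher there by 0.62 on the log2 scale. Their per-cell medians differed more. These were 5960 CPM in Eed iKO-D and 8403 CPM in Ctrl-D for Krt6a, and 2808 CPM in Eed iKO-D and 4467 CPM in Ctrl-D for Krt6b. For Krt16 they were 6051 CPM in Eed iKO-D and 12232 CPM in Ctrl-D. In cluster 13 Krt6a was at 4678 CPM in Eed iKO-D and 4436 CPM in Ctrl-D, and Krt16 at 2175 CPM in Eed iKO-D and 2078 CPM in Ctrl-D, ratios of 1.05 and 1.05. The median gene there was higher by 0.40. Krt6b, at 708 CPM in Eed iKO-D and 376 CPM in Ctrl-D, had a ratio of 1.88 (1.79 to 1.99) in cluster 13, or 1.42 relative to the median gene. Most of the Ctrl-D cells of cluster 13, 124 of 129, had UMIs of Xist and none of Y-linked genes, so they came from female mice, while in Eed iKO-D both kinds occurred (1056 with Xist only, 169 with Y-linked genes only). The part of sex or animal in these values was not tested.

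In cluster 3, Krt6a, Krt6b and Krt16 were higher in Eed iKO-D, while Krt17, described further on, and the basal keratins Krt5 (ratio 0.740) and Krt14 (0.716) were lower. Krt6a was at 3090 CPM in Eed iKO-D and 2095 CPM in Ctrl-D, a ratio of 1.47. Krt16 was at 2678 CPM in Eed iKO-D and 1852 CPM in Ctrl-D, a ratio of 1.45, and Krt6b at 1300.05 CPM in Eed iKO-D and 464 CPM in Ctrl-D, a ratio of 2.80 (2.71 to 2.89). The 144 Eed iKO-D cells of this cluster were uneven. Their median Krt6b level was 212 CPM per cell, the upper quartile 2164 CPM and the 90th percentile 9553 CPM, against a median of 0, an upper quartile of 67.9 and a 90th percentile of 884 CPM in Ctrl-D. Clusters 9 and 11 had low Krt6b. It was at 215 CPM in Eed iKO-D and 62.4 CPM in Ctrl-D in cluster 9, and at 66.2 CPM in Eed iKO-D and 7.46 CPM in Ctrl-D in cluster 11. The values of cluster 11 and of Ctrl-D cluster 9 are no higher than the Krt6b of T cell-like and fibroblast-like cells of the same library, given next. That of Eed iKO-D cluster 9 is below T cell-like cells (268 CPM) but above fibroblast-like ones (68.3 CPM). The ratios of 3.44 and 8.87 therefore do not by themselves show a difference in expression.

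UMIs of these keratins in immune cells and fibroblasts, which free RNA can give, were many in Eed iKO-D. In T cell-like cells Krt6a was at 789 CPM in Eed iKO-D and 476 CPM in Ctrl-D, and Krt6b at 268 CPM in Eed iKO-D and 74.7 CPM in Ctrl-D. Neutrophil-like cells had 1083 CPM of Krt6a and 672 CPM of Krt16 in Eed iKO-D, and 158 CPM of Krt6a and 153 CPM of Krt16 in Ctrl-D. Fibroblast-like cells had 271 CPM of Krt6a and 68.3 CPM of Krt6b in Eed iKO-D, and 312 CPM of Krt6a and 93.2 CPM of Krt6b in Ctrl-D. Krt6a and Krt16 in cluster 11 of Eed iKO-D, at 804 and 349 CPM, also lie within the range of these classes, as do Krt6a and Krt16 in cluster 11 of Ctrl-D, at 475 and 282 CPM. In Eed iKO-D cluster 9, Krt16 at 717 CPM exceeded the neutrophil-like level by little. The Krt17 levels of the 5 shared clusters were above these classes, which held 40.1 to 106 CPM in Eed iKO-D and 116 to 573 CPM in Ctrl-D. Mast cell-like cells, 67 in Eed iKO-D and 18 in Ctrl-D, stood apart with 4281 CPM of Krt6a in Eed iKO-D, close to the level of epithelial-like cells, and 42.5 CPM in Ctrl-D. They also had 1589 CPM of Krt6b and 2291 CPM of Krt16 in Eed iKO-D, above the levels of both in cluster 13 of Eed iKO-D, and 333 CPM of Krt17. What part such RNA has in the keratinocyte values was not tested beyond subtracting the T cell-like and neutrophil-like levels. The subtraction left class ratios of 2.36 for Krt6a, 1.999 for Krt6b, 1.49 for Krt16 and 0.491 for Krt17. It used summed levels, among them the uneven Krt6a level of Ctrl-D T cell-like cells. The unnamed clusters, which enter no comparison, had 3123 CPM of Krt6a and 1862 CPM of Krt16 in Eed iKO-D, and 345 CPM of Krt6a and 226 CPM of Krt16 in Ctrl-D.

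Krt17 was the member whose lower level in Eed iKO-D extended across clusters. In cluster 13 it was at 834 CPM in Eed iKO-D and 2848 CPM in Ctrl-D, a ratio of 0.293 (0.287 to 0.299). In cluster 7 it was at 1295 CPM in Eed iKO-D and 4095 CPM in Ctrl-D, a ratio of 0.316 (0.310 to 0.322). Of the 4 abundant members, Krt17 had the ratio furthest from 1 in both of these clusters. Other keratins differed there too: in cluster 7, Krt10 had a ratio of 0.360, Krt1 of 0.517 and Krt5 of 1.58, and in cluster 13 Krt10, at 8.82 CPM in Eed iKO-D and 21.6 CPM in Ctrl-D, had a ratio of 0.408. In cluster 3 it was at 717 CPM in Eed iKO-D and 1553 CPM in Ctrl-D, a ratio of 0.462, and in cluster 11 at 1750 CPM in Eed iKO-D and 3088 CPM in Ctrl-D, a ratio of 0.567. Cluster 9 was the exception, with 804 CPM in Eed iKO-D and 812 CPM in Ctrl-D, a ratio of 0.9901 (0.936 to 1.05). The Ctrl-D cells of cluster 9 were shallow, with a median of 4511 UMIs against 30256 in Eed iKO-D. T cell-like cells of Ctrl-D, with a median of 3204 UMIs, held 573 CPM of Krt17, against 91.8 CPM in those of Eed iKO-D. The part of free RNA in the cluster 9 values was not tested. Krt17 was at least 1.5-fold lower in 4 of 5 shared clusters. The shares of all measured genes that were as much lower in the same cluster were 14.4% in cluster 3, 11.3% in cluster 7, 17.9% in cluster 11 and 13.6% in cluster 13. Its highest levels were in the cornifying-like cluster 8, at 5331 CPM in the 14 cells of Eed iKO-D and 5812 CPM in the 246 cells of Ctrl-D.

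**Figure D2:**
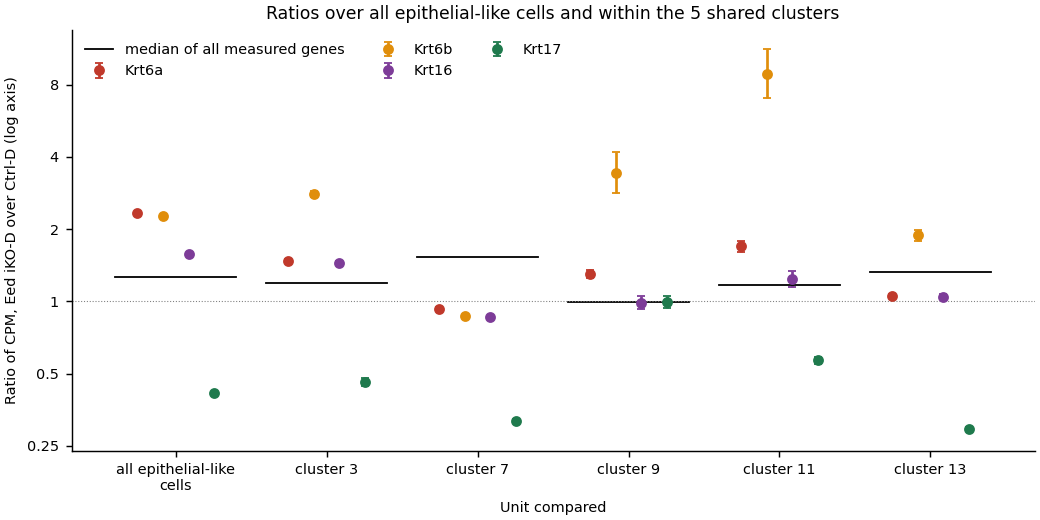
Ratio of CPM, Eed iKO-D over Ctrl-D (log axis), over all epithelial-like cells and within each shared cluster, with exact 95% intervals for counting error and the median ratio of all measured genes as a black line. Krt17 lies below 1 in 4 of 5 clusters and near 1 in cluster 9, while Krt6a and Krt16 lie between 0.860 and 1.69. The high Krt6b ratios of clusters 9 and 11 rest on levels no higher than those of T cell-like and neutrophil-like cells of the same library. In Eed iKO-D the cluster 9 level is above that of fibroblast-like cells.

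Counted by cluster, at least 1.5-fold higher members were Krt6b in cluster 3, where 31.2% of measured genes were, none in cluster 7, where 51.4% were, and Krt6b in cluster 13, where 41.8% were. They were also Krt6b in cluster 9, against 15.1% of genes, and Krt6a and Krt6b in cluster 11, against 31.1%. In clusters 9 and 11 these summed levels were not above the highest of the T cell-like, neutrophil-like and fibroblast-like levels of the same library. Krt16 was in none of the 5. When the 5 shared clusters were weighted equally, the ratio over the class was 1.08 for Krt6a, 1.05 for Krt6b, 0.944 for Krt16 and 0.436 for Krt17. This setting was added after the data were seen, and cluster 7 counts most in it through its high levels. The median of the 5 within-cluster ratios was 1.30 for Krt6a, 2.80 for Krt6b, 1.05 for Krt16 and 0.462 for Krt17. The Krt6b median takes in the ratios of clusters 9 and 11, which do not by themselves show a difference in expression. In the other shared clusters the Krt6b ratios were 0.866 (cluster 7), 1.88 (cluster 13) and 2.80 (cluster 3). Within clusters the ratios ran between 0.860 and 1.45 for Krt16, whose class ratio was 1.57, and between 0.293 and 0.9901 for Krt17, whose class ratio was 0.417.

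The share of each keratin's UMIs held by each cluster differed between the libraries. In Eed iKO-D, cluster 13 held 61.5% of the Krt6a UMIs of epithelial-like cells and cluster 7 held 27.0%, while in Ctrl-D cluster 3 held 57.3% and cluster 7 held 20.9%. For Krt6b, cluster 7 held 60.9% in Eed iKO-D from 15.4% of the cells, and 49.1% in Ctrl-D from 2.65% of the cells. For Krt16, cluster 7 held 52.8% in Eed iKO-D and 29.7% in Ctrl-D. Without cluster 7 the Krt16 ratio was 1.17. Without cluster 13 it was 2.41, and that of Krt6b was 3.90. Krt17 was spread differently, with 55.3% in cluster 13 of Eed iKO-D, and with 38.2% in cluster 3 and 29.0% in the follicle-like cluster 11 of Ctrl-D.

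Within clusters the levels of single cells overlapped widely. In cluster 7, Krt16 had a median of 6051 CPM per cell in Eed iKO-D, with the 10th percentile at 1356 and the 90th at 23354, and a median of 12232 CPM in Ctrl-D, with 2748 and 26857. Krt17 in the same cells had a median of 251 CPM in Eed iKO-D and 1799 CPM in Ctrl-D. In cluster 13 the Krt6a medians were 3548 CPM in Eed iKO-D and 3882 CPM in Ctrl-D, and those of Krt17 were 387 CPM in Eed iKO-D and 1664 CPM in Ctrl-D. Krt6b was the most uneven of the abundant members: the highest 10% of epithelial-like cells held 74.3% of its UMIs in Eed iKO-D and 97.0% in Ctrl-D. For Krt6a they held 44.5% in Eed iKO-D and 63.0% in Ctrl-D. The highest single cells had 4870 Krt16 UMIs in Eed iKO-D and 3828 in Ctrl-D, both in cluster 7.

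**Figure D3:**
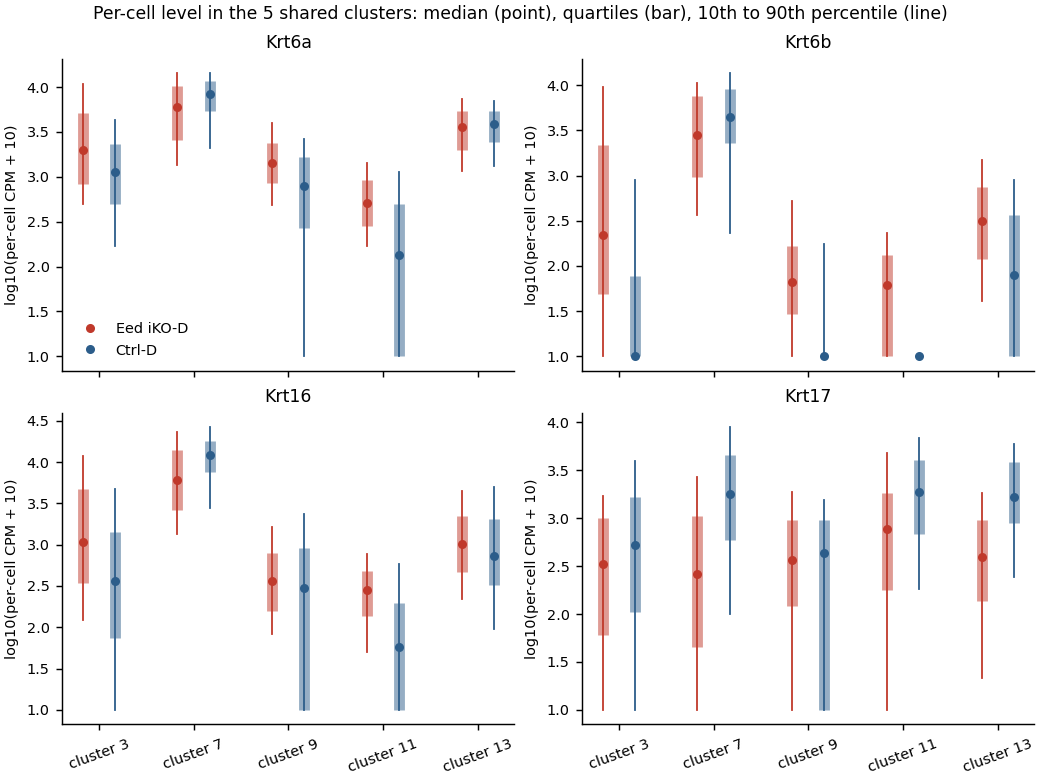
Per-cell levels as log10(CPM + 10) of 4 keratins in the shared clusters, Eed iKO-D in red at the left and Ctrl-D in blue at the right, with the median as a point, the quartiles as a bar and the 10th to 90th percentiles as a line. The Krt17 medians are lower in Eed iKO-D in all 5 clusters, while the Krt6a distributions of cluster 13 overlap almost wholly.

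To compare how many cells had each keratin, cells were thinned to 2000 UMIs, which left out 25 epithelial-like cells in Eed iKO-D and 157 in Ctrl-D. Krt6a was then detected in 91.5% of epithelial-like cells in Eed iKO-D and 59.5% in Ctrl-D, and without thinning in 99.8% in Eed iKO-D and 81.0% in Ctrl-D. Krt6b was detected in 49.9% in Eed iKO-D and 12.9% in Ctrl-D, and Krt16 in 72.0% in Eed iKO-D and 46.4% in Ctrl-D. However, neutrophil-like cells of Eed iKO-D, with a like thinning, had Krt6a in 85.6%, Krt6b in 48.9% and Krt16 in 70.1%. Fibroblast-like cells of Eed iKO-D, with a median of 24794 UMIs against 4908 in neutrophil-like ones, had Krt6a in 38.8%, Krt6b in 13.1% and Krt16 in 26.5%. The Krt6b and Krt16 shares of Eed iKO-D are therefore at the neutrophil-like level but above the fibroblast-like one. The Krt6a share exceeds the neutrophil-like level by little. Which class gives the background of epithelial-like cells was not tested, so the shares do not tell how many cells express the genes. In cluster 7 the shares were well above both levels, with Krt6b in 87.9% of cells in Eed iKO-D and 87.7% in Ctrl-D and Krt16 in 97.1% in Eed iKO-D and 98.6% in Ctrl-D.

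Krt17 had a lower background and a lower share in Eed iKO-D. It was detected in 51.9% (50.1 to 53.7) of epithelial-like cells in Eed iKO-D and 66.1% (64.9 to 67.4) in Ctrl-D. In T cell-like cells the shares were 17.1% in Eed iKO-D and 15.7% in Ctrl-D. Neutrophil-like cells of Eed iKO-D had 19.7%, and in Ctrl-D only 10 of them were deep enough to be thinned. Without thinning the order was lost, with 87.7% in Eed iKO-D and 85.4% in Ctrl-D. In cluster 7 the thinned shares were 47.1% (42.5 to 51.7) in Eed iKO-D and 80.4% (72.8 to 86.7) in Ctrl-D, and in cluster 13 they were 52.3% (49.8 to 54.8) in Eed iKO-D and 86.3% (79.0 to 91.8) in Ctrl-D. In cluster 9 they were 56.3% (51.4 to 61.1) in Eed iKO-D and 52.7% (43.7 to 61.6) in Ctrl-D, intervals that overlap.

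Cells with UMIs of all 4 abundant keratins were less frequent in Eed iKO-D in cluster 7, and more frequent in Eed iKO-D over the class as a whole. In cluster 7, 43.1% of thinned cells in Eed iKO-D and 73.2% in Ctrl-D had all of Krt6a, Krt6b, Krt16 and Krt17. In cluster 13 they were 23.2% in Eed iKO-D and 31 of 124 cells in Ctrl-D. In cluster 3 the shares were 28.4% in Eed iKO-D and 9.92% in Ctrl-D, in cluster 9 they were 7.16% in Eed iKO-D and 3.88% in Ctrl-D, and in cluster 11 they were 7.34% in Eed iKO-D and 0.0703% in Ctrl-D. Over all epithelial-like cells they were 21.8% in Eed iKO-D and 8.18% in Ctrl-D. In neutrophil-like cells of Eed iKO-D, 7.01% had all 4, close to the Eed iKO-D shares of clusters 9 and 11, and in fibroblast-like cells of Eed iKO-D 0.665% did. Across the thinned cells of cluster 7, Krt6a and Krt16 had a Spearman correlation of 0.76 over 478 cells in Eed iKO-D and 0.74 over 138 cells in Ctrl-D. Those of Krt16 with Krt17 were 0.41 in Eed iKO-D and 0.37 in Ctrl-D. These cells share a library and a fixed depth, and the values are descriptions.

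**Figure D4:**
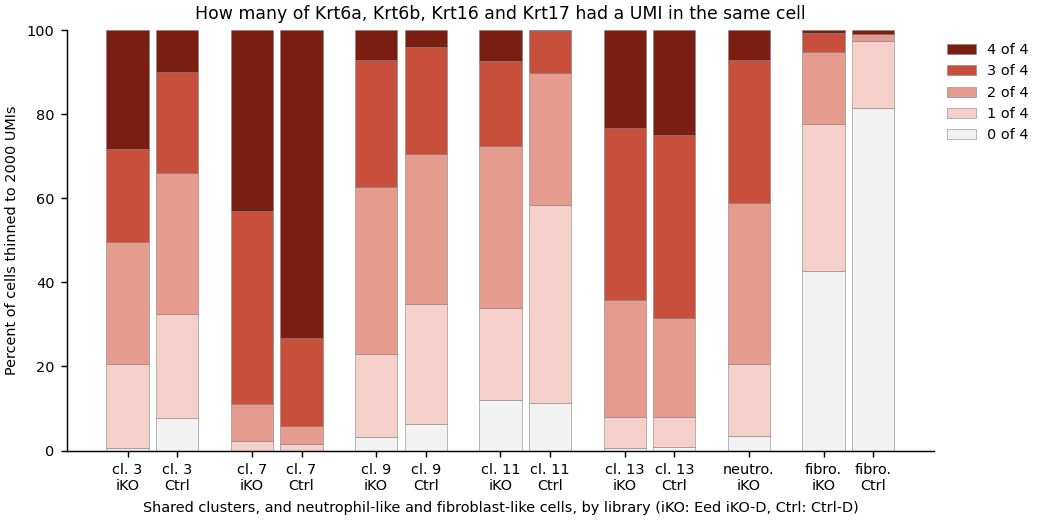
Percent of cells, each thinned to 2000 UMIs, with a UMI of 0 to 4 of Krt6a, Krt6b, Krt16 and Krt17, by cluster and library (iKO is Eed iKO-D, at the left of each pair). The share with all 4 is 43.1% in Eed iKO-D and 73.2% in Ctrl-D in cluster 7, and 3.42% of neutrophil-like cells in Eed iKO-D had none of them.

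The balance within keratin pairs followed from these levels. Reads come from the 3′ end, so counts do not scale with transcript length, but capture may differ between genes, and the ratios are compared between libraries and clusters only. In epithelial-like cells there were 3.63 Krt16 UMIs for each Krt17 UMI in Eed iKO-D and 0.961 in Ctrl-D. In cluster 7 this balance was 9.94 in Eed iKO-D and 3.65 in Ctrl-D, in cluster 13 it was 2.61 in Eed iKO-D and 0.730 in Ctrl-D, and in cluster 9 it was 0.892 in Eed iKO-D and 0.894 in Ctrl-D. The balance of Krt6a to Krt6b was alike over the class, 3.36 in Eed iKO-D and 3.25 in Ctrl-D, but varied with the cluster. In cluster 3 it was 2.38 in Eed iKO-D and 4.51 in Ctrl-D. In clusters 9 and 11, where Krt6b was low, it was 9.62 and 12.15 in Eed iKO-D and 25.4 and 63.7 in Ctrl-D. It was 1.49 in Eed iKO-D and 1.38 in Ctrl-D in cluster 7, and 6.61 in Eed iKO-D and 11.8 in Ctrl-D in the basal-like cluster 13. Krt6b was thus closest to Krt6a where both were highest. The type II members together had 1.41 UMIs for each UMI of the type I members in Eed iKO-D and 0.600 in Ctrl-D.

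The 5 keratins made up 31.4% of all keratin UMIs of epithelial-like cells in Eed iKO-D and 24.1% in Ctrl-D. Krt14, the largest share, was at 48.9% in Eed iKO-D and 47.8% in Ctrl-D, and Krt5 at 17.7% in Eed iKO-D and 18.1% in Ctrl-D. Krt6a ranked 3rd among the keratins in Eed iKO-D, at 14.2%, and 5th in Ctrl-D, at 6.92%. Krt17 ranked 6th in Eed iKO-D, at 2.81%, and 3rd in Ctrl-D, at 7.70%. In cluster 7 the 5 keratins were 53.5% of keratin UMIs in Eed iKO-D and 56.6% in Ctrl-D, and in cluster 13 they were 26.1% in Eed iKO-D and 27.8% in Ctrl-D. Keratin UMIs as a whole were 3.25% of all UMIs of epithelial-like cells in Eed iKO-D and 2.85% in Ctrl-D.

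**Figure D5:**
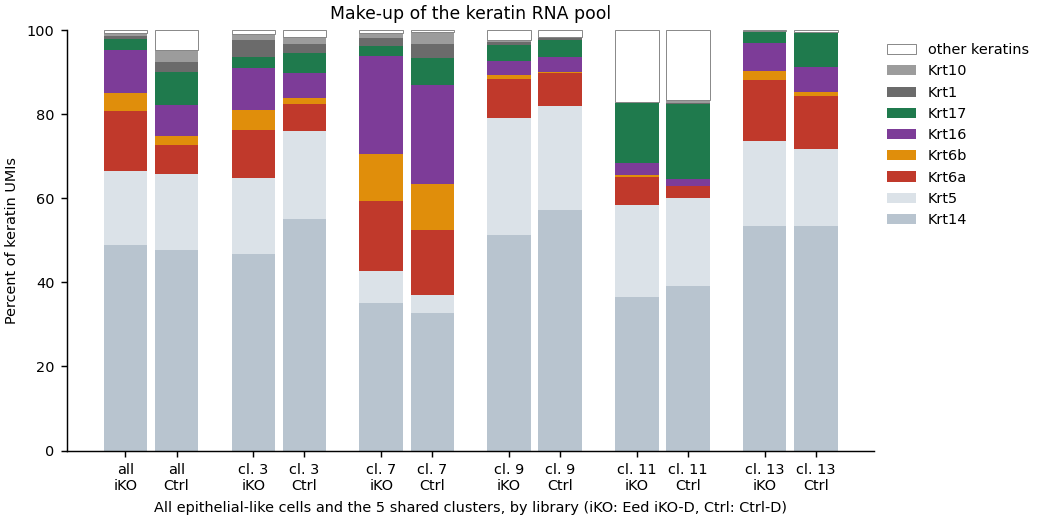
Percent of keratin UMIs from each keratin in all epithelial-like cells and in the 5 shared clusters, with Eed iKO-D (iKO) at the left and Ctrl-D (Ctrl) at the right of each pair. The wound keratins fill 53.5% of the pool in Eed iKO-D and 56.6% in Ctrl-D in cluster 7, and the green Krt17 share is smaller in Eed iKO-D in clusters 3, 7, 11 and 13.

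Krt75 followed the hair follicle and not the tumour keratinocytes. In the hair cluster 4, led by the inner root sheath keratins Krt25 and Krt71, there were 9 cells with 11 Krt75 UMIs in Eed iKO-D and 514 cells with 998 Krt75 UMIs in Ctrl-D. The level there was 126 CPM (62.9 to 225) in Eed iKO-D and 131 CPM (123 to 140) in Ctrl-D. The intervals do not cover the spread between cells: 3 cells held the Eed iKO-D UMIs, 1 of them 7, and 1 Ctrl-D cell held 302. The Ctrl-D UMIs were in 106 cells and made up 74.8% of the library's 1335. Most of the others, 303 UMIs in 49 cells, were in the follicle-like cluster 11, where Eed iKO-D had 7 UMIs in 4 cells. The level in cluster 11 was 3.31 CPM in Eed iKO-D and 14.6 CPM in Ctrl-D, a ratio of 0.227 (0.0905 to 0.473). A single Ctrl-D cell there held 110 UMIs. In T cell-like and neutrophil-like cells Krt75 had 0 UMIs in both libraries, which allows up to 2.5 CPM in T cell-like cells of Eed iKO-D and 1.13 CPM in those of Ctrl-D (3 UMIs of the class total). Fewer follicle cells and less Krt75 per cell cannot be told apart with 9 hair cells in Eed iKO-D.

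Within the Ctrl-D hair cluster, 37 cells had at least 3 Krt75 UMIs and 408 had none, and Krt17 and Krt6a differed between them. Krt17 was at 4662 CPM in the cells with Krt75 and 452 CPM in those without, while Krt6a was at 58.7 CPM with Krt75 and 145 CPM without. Krt16 was alike, at 111 CPM with Krt75 and 115 CPM without. The genes furthest above in the cells with Krt75 were Tm4sf1, a tetraspanin-like membrane protein, Clu, which encodes clusterin, Gm94, Liph, a lipase needed for hair growth, and the ligand Wnt11. Tm4sf1 was at 1330 CPM with Krt75 and 13.2 CPM without, but in only 15 of the 37 cells. The inner root sheath keratin Krt71 was at 1622 CPM with Krt75 and 517 CPM without. Krt75 chose these cells, so the values describe them and test nothing.

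Across 13 units (an epithelial-like cluster in 1 library, with at least 50 cells), the members fell into a group and 2 loners. Pearson correlations of log2(CPM + 5) were 0.92 for Krt6a with Krt6b, 0.91 for Krt6b with Krt16 and 0.82 for Krt6a with Krt16. Krt17 had 0.02 with Krt6a, 0.08 with Krt6b and 0.26 with Krt16. These units share 2 libraries and are a description. Among 5227 genes, those most like Krt6a were Dstn, an actin-severing protein, Plcd1, a phospholipase C, and Tmigd1, an adhesion protein, with r of 0.91 for each. Plcd1 (0.96), the cornified envelope precursor Sprr1b (0.94) and the desmosome and adherens junction plaque protein Jup (0.91) were most like Krt6b. Sprr1b (0.95), the glutaredoxin Glrx (0.94) and the stefin Stfa2 (0.93) were most like Krt16. Genes like Krt17 in pattern included the epidermal protease Asprv1 (0.85) and the suprabasal gene Sbsn (0.83). Krt75 was most like the follicle stem cell genes Lhx2 (0.90) and Lgr5 (0.86) and the dystrophin gene Dmd (0.85). These values rest largely on cluster 11 of Ctrl-D, where Krt75 was at 14.6 CPM, against at most 3.31 CPM in any other unit. With the hair cluster of Ctrl-D added as a unit, the genes most like Krt75 were others: Lef1 (0.98), Slc16a7 (0.97) and Tspan18 (0.97).

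Genes that keratinocytes switch on with these keratins at wounds were more often higher in Eed iKO-D. Of 30 measured wound-activated genes in epithelial-like cells, 20 were at least 1.5-fold higher, where 38.7% of all measured genes were, and 3 at least 1.5-fold lower, where 16.9% were, with a median log2 ratio of 1.47 against 0.34 for all measured genes. Mmp10, a matrix protease of migrating keratinocytes, was at 143 CPM in Eed iKO-D and 16.1 CPM in Ctrl-D and at least 1.5-fold higher in 4 and lower in 1 of the 5 shared clusters. Pdpn, the wound-edge glycoprotein podoplanin, was at 149 CPM in Eed iKO-D and 21.3 CPM in Ctrl-D and at least 1.5-fold higher in 4 of 5. The lowest of the list were Sprr1a, an envelope precursor, at 189 CPM in Eed iKO-D and 334 CPM in Ctrl-D, and the gelatinase Mmp9, at 19.8 CPM in Eed iKO-D and 31.5 CPM in Ctrl-D. Within the shared clusters Sprr1a was at least 1.5-fold higher in 2 and lower in 1 of 5, and Mmp9 higher in 0 and lower in 3 of the 4 where it was measured.

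Of 19 other epidermal keratins, 4 were higher and 10 lower by at least 1.5-fold, against 38.7% higher and 16.9% lower among all measured genes, and their median log2 ratio was -0.60. The highest were Krt13 and the simple-epithelial keratin Krt18, at 21.4 CPM in Eed iKO-D and 6.60 CPM in Ctrl-D. The lowest were Krt79, a keratin of the follicle infundibulum and sebaceous duct, at 43.1 CPM in Eed iKO-D and 448 CPM in Ctrl-D, and the suprabasal Krt77, at 12.6 CPM in Eed iKO-D and 113 CPM in Ctrl-D. Of 15 desmosome and keratin anchor genes, 8 were higher and 0 lower, against the same 38.7% and 16.9% of all genes, and their median was 0.72. The desmosomal cadherins Dsc2, at 170 CPM in Eed iKO-D and 19.3 CPM in Ctrl-D, and Dsg3, at 821 CPM in Eed iKO-D and 268 CPM in Ctrl-D, had the highest ratios. The cytolinker epiplakin, Eppk1, was at 38.9 CPM in Eed iKO-D and 47.0 CPM in Ctrl-D over the class, yet at least 1.5-fold higher in Eed iKO-D in 3 and lower in 0 of 5 shared clusters. The plakophilin Pkp3 was at 114 CPM in Eed iKO-D and 132 CPM in Ctrl-D.

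Of 24 factors known to act on these keratin genes, 7 were higher and 4 lower, no larger shares than the 38.7% and 16.9% of all measured genes, and the median log2 ratio of 0.23 was below that of all genes. The zinc finger factor Klf6 was at 628 CPM in Eed iKO-D and 276 CPM in Ctrl-D, and Gli2, an effector of Hedgehog signalling, at 46.1 CPM in Eed iKO-D and 24.2 CPM in Ctrl-D. The C/EBP factors were lowest, Cebpd at 19.6 CPM in Eed iKO-D and 110 CPM in Ctrl-D, and Cebpb at 171 CPM in Eed iKO-D and 361 CPM in Ctrl-D. Among 12 targets of the oxidative stress factor NRF2, 8 were higher, against 38.7% of all genes, and 2 lower, close to the 16.9% of all genes, and their median was 0.78. Gsr, glutathione reductase, was at 223 CPM in Eed iKO-D and 49.3 CPM in Ctrl-D and at least 1.5-fold higher in 5 of 5 shared clusters, and the haem oxygenase gene Hmox1 was at 52.3 CPM in Eed iKO-D and 15.1 CPM in Ctrl-D. The cystine transporter gene Slc7a11 was at 27.0 CPM in Eed iKO-D and 42.5 CPM in Ctrl-D over the class, yet at least 1.5-fold higher in Eed iKO-D in 5 of 5 shared clusters. Thioredoxin, Txn1, was at 1180 CPM in Eed iKO-D and 1782 CPM in Ctrl-D, and at least 1.5-fold lower in 4 of 5.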

How the data were processed

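The deposited files hold raw UMI counts per gene and barcode for called cells, without normalization. Per the labels' protocols, tumours were dissociated with collagenase and trypsin, dead cells were removed, and libraries were made with a 10x Genomics 3′ kit, version 2. Sources name different Cell Ranger versions: the file headers 7.1.0, the labels' protocols 2.1.0 and the submitters' processing notes 8.0. The build is mm10 per the labels.

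Cells with at least 500 genes and at most 15% mitochondrial UMIs were kept (96.5% in Eed iKO-D, 93.6% in Ctrl-D). Each cell was scaled to 10000 UMIs, then logged. With 2000 variable genes (the 5 keratins left out), 30 principal components, 15 neighbours and Leiden resolution 1.0 (scanpy 1.11.5), 26 clusters were found, without batch correction. Clusters were named "X-like" from marker lists, where 3 or more markers were raised, their mean score reached 0.5 and it led the next lineage by 0.3. A cluster was still left unnamed where Gm42418 exceeded 10% of UMIs and fewer than 3 of its 10 leading genes were markers of its best lineage. The same held where a haemoglobin gene was among its 3 leading genes. Clusters 24 and 25, with 7232 and 2915 cells in Eed iKO-D, met the score rule and were unnamed through these further rules. The scoring rule was set with the data seen. Scrublet called 0 cells in Eed iKO-D and 132 in Ctrl-D, so it did not work in Eed iKO-D, doublets were left in, and an alternative drops the highest scores. UMIs were summed per class and library and given as CPM, with exact Poisson, conditional binomial (ratios) and Clopper-Pearson (shares) intervals at 95%. Genes needed 20 UMIs over both libraries. For shares, cells were thinned to 2000 UMIs. Medians over genes used 0.5 UMI added to each count.

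The members and the 5 gene lists were chosen with earlier results of these data known. Of the wound-activated list, 30 of 32 genes were found in the files. Named genes were the members, the 3 most alike in pattern (at least 50 CPM in 1 unit) and the 2 highest and 2 lowest ratios of each list at 20 CPM or more, besides Krt1, Krt5, Krt10, Krt13, Krt14 and Eed. A gene that this rule chose is not reported here. Other genes named as leading a cluster or the cells with Krt75 describe those cells. The ratio calculation was tested on simulated data. Positions and sequences came from GENCODE M21 on mm10.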

Additional observations from a re-analysis of the deposited data

Results flagged for a closer look

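In Eed iKO-D, 1 cell of an unnamed cluster held 98 of the library's 128 Krt75 UMIs (76.6%), a signal in cells that the comparisons do not use. The cell had 15823 UMIs, with 36 of Krt17, 16 of Krt5, 10 of Krt14 and 2 of Krt6a, and 15 of Tm4sf1, a gene that also marked the Krt75 cells of the Ctrl-D hair cluster. It had 0 UMIs of the inner root sheath keratins Krt71 and Krt25, and 192 of the neutrophil gene S100a9. Its cluster of 252 Eed iKO-D and 13 Ctrl-D cells was led by haemoglobin and neutrophil genes, with a median of 2766 UMIs in Eed iKO-D. Whether the droplet held more than 1 cell was not tested.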

How the results depend on the processing

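No paired analysis was possible because each group has 1 library. For Krt6a, Krt6b, Krt16, Krt17 and Krt75 in that order, the class ratios were 2.34, 2.27, 1.57, 0.417 and 0.0285. They were 2.14, 1.96, 1.40, 0.464 and 0.0151 with at least 1000 genes and at most 10% mitochondrial UMIs, and 2.32, 2.21, 1.53, 0.386 and 0.0130 with each cell assigned by its own markers. They were 2.29, 2.12, 1.52, 0.423 and 0.0269 without the 8% highest Scrublet scores, and 2.18, 2.11, 1.47, 0.388 and 0.0265 with totals free of Gm42418, mitochondrial, ribosomal protein and haemoglobin genes. Relative to the median gene they were 1.85, 1.79, 1.25, 0.330 and 0.0225, as means of per-cell CPM 2.55, 3.22, 1.76, 0.389 and 0.0436, and with the CPM of T cell-like and neutrophil-like cells subtracted 2.36, 1.999, 1.49, 0.491 and 0.0285. Resolution 0.5 kept each within its interval, as did allowing the 5 keratins among the variable genes, except Krt16 at 1.55.

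Resolution 2.0 gave 1.21, 0.834, 0.684, 0.280 and 0.00850, which reversed Krt6b and Krt16 and left 0 members at least 1.5-fold higher in Eed iKO-D, against 3. There, 2029 of 2664 Ctrl-D cells of cluster 3, 650 of 650 of cluster 5 and 1162 of 1455 of cluster 11 lost their epithelial-like name, all low in Krt6b and Krt16 beside cluster 7, so fewer cells entered the class. Weighting the 5 shared clusters equally, added after the data were seen, gave 1.08, 1.05, 0.944, 0.436 and 0.189, with Krt16 reversed and 0 members at least 1.5-fold higher. Leaving out 1 cluster, also added, moved ratios by over 1.5 times for Krt6b (3.90) and Krt16 (2.41) without cluster 13, and for Krt75 (0.0141 without cluster 3, 0.118 without cluster 11, 0.0483 without cluster 13). Krt6a, between 1.08 and 2.55, Krt17 and Krt75 kept their direction in each setting run.

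Without thinning, the shares of epithelial-like cells with a UMI were 99.8% in Eed iKO-D and 81.0% in Ctrl-D for Krt6a, 89.8% and 25.4% for Krt6b, 98.8% and 74.95% for Krt16, 87.7% and 85.4% for Krt17, and 0.316% and 1.35% for Krt75, so thinning turned the order for Krt17. Depth limits Krt75, with 13 UMIs in Eed iKO-D.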
